A study of Mus musculus with 30 samples.

Results

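A panel of 10 genes that define dendritic cells (DCs) was followed in mouse BMDCs, DCs grown from bone marrow with GM-CSF, by RNA sequencing. They were listed by name with no threshold on a measured value, although earlier results of these data were known, and all 10 have a row among the 43629 genes of the count table. They are the transcription factor genes *Spi1*, *Irf8*, *Irf4*, *Batf3*, *Id2*, *Zbtb46*, *Runx3* and *Bcl11a*, the cytokine receptor gene *Flt3* and the enzyme gene *Kmo*. Each was read in WT and *Cacnb3*-/- BMDCs, over the sets of libraries named ctrl, 0p5h and 24h, and across cultures.

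DCs arise from bone marrow progenitors that carry Flt3, a receptor tyrosine kinase whose ligand drives DC development. PU.1, the product of *Spi1*, sets the level of many myeloid genes, and Irf8, Batf3 and Id2 are needed for the conventional DCs known as cDC1, whereas Irf4 is needed for much of the cDC2 branch and for migration to lymph nodes. Cultures in GM-CSF hold DC-like and macrophage-like cells side by side. In RNA from whole cultures, fewer cells of a type and less RNA per cell cannot be told apart.

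The study asked how Cacnb3, a subunit of voltage-gated calcium channels, acts on DCs that meet extracellular ATP. Each of 10 cultures gave 1 library per set, which makes 5 libraries in each of 6 groups and 30 in all. Values listed without a culture number run, for WT, through p974s846, then p974s850, then p974s855, then p974s856 and last p974s864. For *Cacnb3*-/- they run through p974s843, then p974s851, then p974s852, then p974s853 and last p974s865. All BMDCs had been cultured for 6 days, and the protocol gives 500 µM ATP over 30 min with harvest at once or after 24 h. The treatment field goes against the names of the first pair of sets, since it gives ATP where the name is ctrl, and vehicle where the name is 0p5h, while name and field match for 24h. Sets are therefore called by their library names, and which of ctrl and 0p5h was unstimulated cannot be told apart. Per the study's methods, WT mice were C57BL/6J and *Cacnb3*-/- mice C57BL/6N, mice of both sexes were used, and no Cre or tissue restriction is named, so the deletion and the substrain cannot be told apart. The labels do not say whether a culture number marks 1 animal. The p-values weigh differences against the spread between these cultures. Where the culture is a block, they weigh a change against how unlike that change is between cultures.

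Libraries held 8237393 to 32164225 counts, with a median of 19556920, and no 2 of 435 library pairs agreed within sampling noise. *Cacnb3* itself was counted at 1030 to 2140 CPM (counts scaled to library size by TMM) in WT libraries and at 573 to 1330 CPM in libraries labelled *Cacnb3*-/-. Counts per gene do not show which exons were read, so they do not check the deletion. Mitochondrial genes took 0.707 to 5.61% of counts in WT and 2.16 to 16.5% in *Cacnb3*-/- libraries, highest in the 24h library of p974s843, which was also the shallowest. The trend of a library's values with gene GC content, in log2 units per 10 points of GC, was -0.541 to -0.373 in 4 of 5 *Cacnb3*-/- 24h libraries and 0.0516 in p974s865, against -0.000286 to 0.546 in WT 24h libraries.

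Levels between genes were compared per kilobase of exon, as CPM per kb over all 30 libraries. *Id2*, whose product blocks E proteins, stood highest at 893 ± 262 (SD, n = 30), and its range did not overlap that of *Irf8*, the next gene, at 197 ± 66.9. *Spi1* at 96.0 ± 30.3 and *Batf3* at 95.8 ± 23.9 could not be ordered, since *Spi1* was the higher of the pair in 15 of 30 libraries. Neither could *Runx3* at 40.7 ± 18.5 and *Irf4* at 37.2 ± 9.82, with *Runx3* higher in 14 of 30. *Zbtb46* followed at 15.5 ± 4.05 and *Flt3* at 10.3 ± 4.16, with *Zbtb46* the higher in 27 of 30 libraries. *Kmo* at 0.358 ± 0.161 and *Bcl11a* at 0.103 ± 0.0247 lay far below, and *Kmo* was the higher in 29 of 30. Only 15 to 65 reads per library were counted on *Kmo* and 11 to 50 on *Bcl11a*, so counting error adds to their spread. Of the variance in log2 CPM over the 30 libraries, 82.2% for *Kmo* and 36.3% for *Bcl11a* lay between the means of cultures. The other 8 genes had at least 431 reads in every library. In CPM, *Irf8* ran from 672 to 2590, *Batf3* from 95.7 to 282 and *Bcl11a* from 0.881 to 2.35.

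Markers of the DC branches were uneven. *Sirpa*, a cDC2 marker, reached 134 CPM per kb and *Cd24a*, a cDC1 marker, 103, but both are also carried by other myeloid cells. The defining cDC1 marker *Xcr1* lay between 0.0525 and 1.20 CPM and *Clec9a* between 0.549 and 3.81 CPM, and 5 of 14 cDC1 markers had a median under 1 CPM. *Cd209a*, which marks monocyte-derived DCs, was at 0 in 3 libraries and at most 0.630 CPM. Among plasmacytoid DC markers *Siglech* was at 0 in 12 libraries and at most 0.176 CPM, while *Bst2*, which interferon also induces, stood at 687 CPM per kb. Macrophage markers were uneven too, from *Maf* at 1.72 to *Lyz2* at 3100 CPM per kb. Genes of migratory mature DCs ran from *Socs2* at 29.5 to *Ccl22* at 2770 CPM per kb. T and NK cell markers together summed to 0.258 to 1.6 CPM and B cell markers to 0.614 to 5.18 CPM.

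**Figure D1:**
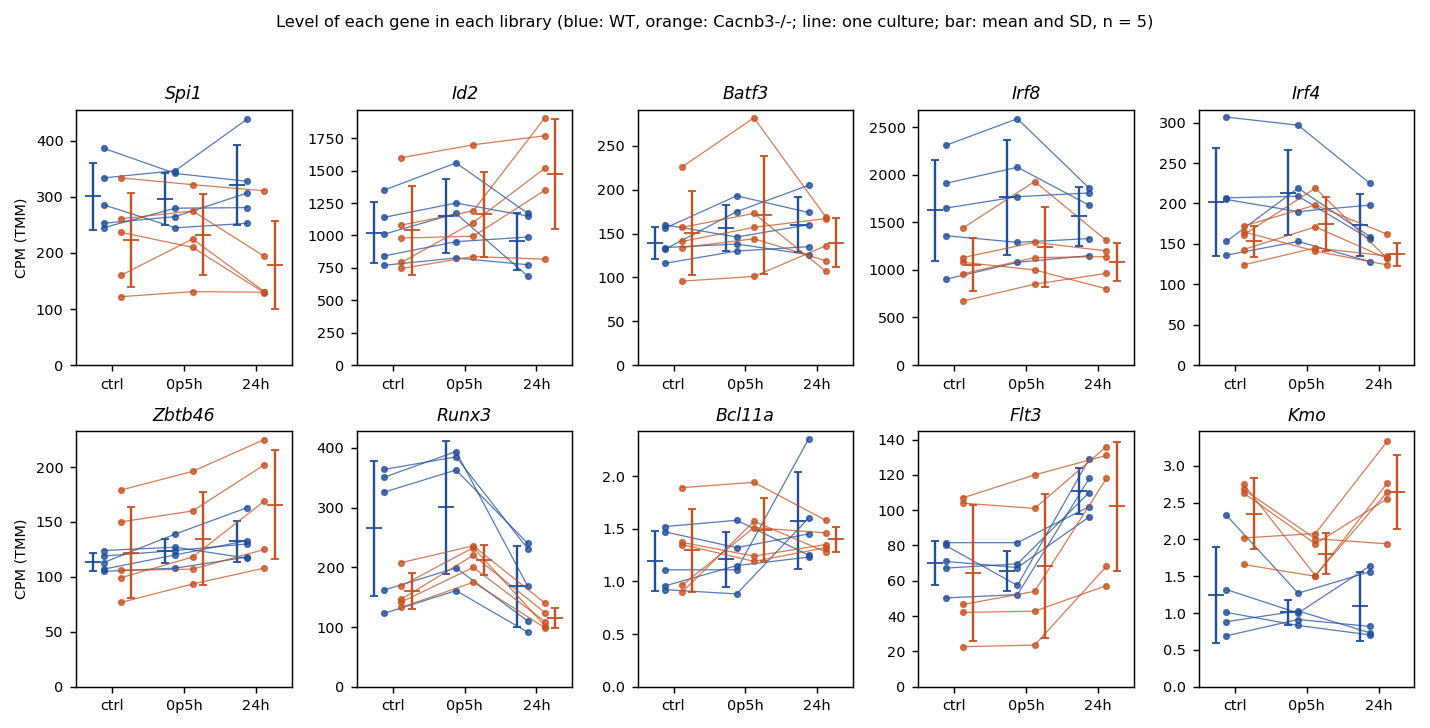
Level of the 10 genes in CPM after TMM scaling (y axis, from 0, separate scale per gene) in the sets ctrl, 0p5h and 24h (x axis). Each line joins the libraries of 1 culture, blue for WT and orange for *Cacnb3*-/-, and the bars give the mean and SD of 5 libraries. *Runx3* peaks at 0p5h and is lowest at 24h in all 10 cultures, and *Flt3* is highest at 24h in all 10.

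Across sets, *Runx3* and *Flt3* were the members with the largest changes. *Runx3* was higher in 0p5h than in ctrl in 10 of 10 cultures and then lower in 24h than in either other set in 10 of 10. *Flt3* was higher in 24h than in both other sets in 10 of 10. From 0p5h to 24h the log2 fold change of *Runx3* was -0.83 in WT and -0.88 in *Cacnb3*-/- BMDCs, and that of *Flt3* was 0.76 and 0.59. In edgeR no member reached an adjusted p under 0.05 together with a 2-fold change in any of the 13 comparisons. In DESeq2 1 did, *Kmo* between genotypes at 24h, where DESeq2 passed 3377 genes at any fold. The share of genes it passed at 2-fold is not given, so that call is no result about the members.

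*Runx3* (ENSMUSG00000070691, GRCm38 chr4:135120652-135177990, plus strand) encodes a Runt domain factor needed for Langerhans cells and known to restrain DC maturation. It is transcribed from 2 promoters. The 250 bases before each start site in RefSeq (GRCm38.p6) are shown because *Runx3* had the widest change between sets among the members. The distal promoter lies at chr4:135120395-135120644 and the proximal one at chr4:135152295-135152544, both on the plus strand. Capitals mark the Runt motif TGTGGT, read on either strand and here in its reverse form.

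Runx3 distal: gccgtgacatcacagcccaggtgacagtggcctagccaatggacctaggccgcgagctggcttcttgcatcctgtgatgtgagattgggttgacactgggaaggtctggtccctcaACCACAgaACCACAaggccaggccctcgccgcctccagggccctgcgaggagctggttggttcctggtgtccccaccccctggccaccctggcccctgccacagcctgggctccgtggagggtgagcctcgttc
Runx3 proximal: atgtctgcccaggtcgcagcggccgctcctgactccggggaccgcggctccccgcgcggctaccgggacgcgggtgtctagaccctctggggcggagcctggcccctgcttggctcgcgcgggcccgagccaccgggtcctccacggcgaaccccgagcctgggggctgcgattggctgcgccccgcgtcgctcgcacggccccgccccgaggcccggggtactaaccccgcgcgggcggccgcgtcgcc

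The distal promoter held 2 matches, starting 134 and 126 bases before the start site, and the proximal one held none. Of 32851 RefSeq promoters of the same length, 14% held at least 1 match. A match describes the letters only, and no binding was measured.

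In WT, *Runx3* stood at 326, 162, 364, 351 and 123 CPM in ctrl, at 363, 199, 385, 394 and 161 CPM in 0p5h and at 240, 110, 231, 168 and 91.3 CPM in 24h. The cultures p974s850 and p974s864 lay well below the other 3 in ctrl and 0p5h, so the groups overlapped although every culture moved alike. In *Cacnb3*-/- BMDCs it stood at 208, 142, 133, 147 and 169 CPM in ctrl, at 236, 200, 175, 220 and 233 CPM in 0p5h and at 140, 109, 98.8, 124 and 102 CPM in 24h. Here every 24h library lay below every 0p5h library. Of all genes tested, 3.21% had such groups without overlap in that comparison, and *Runx3* was the only member among them.

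In edgeR's quasi-likelihood test across all genes (Benjamini-Hochberg adjustment), *Runx3* fell from 0p5h to 24h in *Cacnb3*-/- BMDCs (log2 fold change -0.88 ± 0.14 (SE), adjusted p = 0.0147). It did not pass in WT (-0.83 ± 0.32, adjusted p = 0.343), where the spread between cultures was wider. Libraries of the same number deviated together in both, and with the culture as a block *Runx3* fell in WT (-0.84 ± 0.09, adjusted p = 0.000923) and in *Cacnb3*-/- BMDCs (-0.88 ± 0.09, adjusted p = 0.000134). With the block, it was also past the threshold with any 1 culture left out in both genotypes (adjusted p at most 0.00706 in WT and 0.00207 in *Cacnb3*-/- BMDCs). Without the block, the *Cacnb3*-/- call was lost when p974s851, p974s853 or p974s865 was left out (adjusted p = 0.13, 0.0899 and 0.0526) and when the GC trend was removed (-0.62, adjusted p = 0.0981), whereas the blocked fit kept it with the GC trend removed (-0.65, adjusted p = 0.00215).

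From ctrl to 0p5h, *Runx3* passed with the block only, at 0.23 ± 0.05 in WT (adjusted p = 0.0205) and 0.41 ± 0.07 in *Cacnb3*-/- BMDCs (adjusted p = 0.015). Without the block the values were 0.19 ± 0.35 (adjusted p = 1) and 0.40 ± 0.15 (adjusted p = 0.852). With 1 culture left out the blocked adjusted p reached 0.1 in WT (without p974s856) and 0.114 in *Cacnb3*-/- BMDCs (without p974s865). From ctrl to 24h the blocked value was -0.62 ± 0.11 in WT (adjusted p = 0.0121), and the value without the block was -0.65 ± 0.35 (adjusted p = 0.645). In *Cacnb3*-/- BMDCs that change was -0.48 ± 0.16 without the block (adjusted p = 0.444) and -0.48 ± 0.10 with it (adjusted p = 0.0226). The blocked *Cacnb3*-/- call held in 1 of 5 fits with a culture left out. It was lost with the GC trend removed (-0.26, adjusted p = 0.21). The comparisons share libraries, since 0p5h stands in the first rise and in the later fall.

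*Flt3* (ENSMUSG00000042817, GRCm38 chr5:147330741-147400489, minus strand) is the receptor that gives DC progenitors their response to Flt3 ligand. The 250 bases before its RefSeq start site, at chr5:147400490-147400739 on the minus strand (GRCm38.p6), are shown beside those of *Runx3* because *Flt3* moved the other way at 24h.

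Flt3: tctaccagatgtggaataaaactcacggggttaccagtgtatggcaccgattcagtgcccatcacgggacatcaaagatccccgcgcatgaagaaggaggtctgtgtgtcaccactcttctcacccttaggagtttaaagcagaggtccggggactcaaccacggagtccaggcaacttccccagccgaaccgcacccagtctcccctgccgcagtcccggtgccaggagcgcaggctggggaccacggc

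No letters are in capitals, because none of the 5 motifs searched on both strands was found in this window. Besides the Runt motif these were the interferon-stimulated response element (ISRE), the ETS-IRF composite element (EICE), TGANTCA (AP-1) and GAGGAAGT (PU.1). The share of the 32851 promoters that held them was 2.98%, 2.3%, 6.75% and 2.44%, in that order. The interferon and ETS-IRF elements share letters, so matches to them can overlap. Promoter entries were found for 9 of the 10 genes. Besides *Runx3*, the *Zbtb46* promoter held 1 AP-1 motif and the *Kmo* promoter 1 PU.1 motif.

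WT *Flt3* stood at 81.6, 80.0, 67.2, 71.0 and 50.3 CPM in ctrl, at 81.6, 57.4, 69.6, 67.5 and 52.2 CPM in 0p5h and at 102, 129, 110, 96.2 and 118 CPM in 24h. Every WT 24h library lay above every other WT library. Groups without overlap between 24h and 0p5h were found for 3.69% of genes tested in WT, and *Flt3* was the only member among them. *Cacnb3*-/- BMDCs spread far more, from 22.7 CPM in p974s865 to 107 CPM in p974s853 in ctrl, and from 57.3 CPM in p974s843 to 136 CPM in p974s852 in 24h. Per culture their values were 42.1, 46.6, 104, 107 and 22.7 CPM in ctrl, 42.8, 54.0, 101, 120 and 23.6 CPM in 0p5h and 57.3, 118, 136, 131 and 68.2 CPM in 24h. Each culture was highest at 24h, and the groups overlapped.

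*Flt3* rose from 0p5h to 24h in WT (0.76 ± 0.13, adjusted p = 0.0193), which is 1.69-fold. It also rose with the culture block (0.77 ± 0.13, adjusted p = 0.00692) and with the block and any 1 culture left out (adjusted p at most 0.0307). Without the block the call was lost when any culture but p974s846 was left out (adjusted p = 0.0659 to 0.153). The change in *Cacnb3*-/- BMDCs was 0.59 ± 0.40 (adjusted p = 0.43) without the block and 0.73 ± 0.17 (adjusted p = 0.0106) with it, and the blocked call was lost without p974s851 (adjusted p = 0.0636). From ctrl to 24h *Flt3* gave 0.67 ± 0.14 in WT (adjusted p = 0.179), and 0.68 ± 0.12 with the block (adjusted p = 0.0139, and 0.0548 without p974s855). In *Cacnb3*-/- BMDCs it gave 0.66 ± 0.40 without the block (adjusted p = 0.462) and 0.80 ± 0.19 with it (adjusted p = 0.0323). The blocked *Cacnb3*-/- call held in 2 of 5 fits with a culture left out. From ctrl to 0p5h the values of *Flt3* were -0.08 ± 0.15 in WT and 0.07 ± 0.49 in *Cacnb3*-/- BMDCs.

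*Id2* (ENSMUSG00000020644, chr12:25093801-25096092, minus strand) and *Zbtb46* (ENSMUSG00000027583, chr2:181387762-181459426, minus strand), which encodes a zinc finger factor used as a marker of conventional DCs, were also higher in 0p5h than in ctrl in 10 of 10 cultures. That makes 3 of 10 members with *Runx3*, where 3.8% of 13755 genes were higher in all 10 cultures. None of the members was lower in all 10, against 3.21% of genes. From 0p5h to 24h, 1 member was higher in all 10 cultures (4.11% of genes) and 1 lower (5.98%), and from ctrl to 24h again 1 higher (2.67%) and 1 lower (3.64%), each time *Flt3* and *Runx3*. These counts held under DESeq2's size factors. The steps of *Id2* from ctrl to 0p5h were small, at 0.18 ± 0.20 in WT (adjusted p = 1) and 0.15 ± 0.25 in *Cacnb3*-/- BMDCs (adjusted p = 1). With the block *Id2* rose in WT (0.18 ± 0.04, adjusted p = 0.0401), a call lost with 4 of the 5 cultures left out in turn (adjusted p up to 0.221, without p974s856), and gave 0.16 ± 0.08 in *Cacnb3*-/- BMDCs (adjusted p = 0.383). For *Zbtb46* the blocked values were 0.13 ± 0.05 (adjusted p = 0.143) and 0.14 ± 0.07 (adjusted p = 0.346).

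From 0p5h to 24h *Id2* differed by culture. It went from 1100, 994, 1700, 1190 and 837 CPM to 1520, 1350, 1770, 1910 and 817 CPM in *Cacnb3*-/- BMDCs, higher in 4 of 5 cultures. In WT its step was from 1250, 952, 1560, 1170 and 826 CPM to 1150, 988, 1170, 685 and 774 CPM, lower in 4 of 5 cultures. The blocked values were 0.34 ± 0.12 (adjusted p = 0.0499) and -0.27 ± 0.12 (adjusted p = 0.185). The *Cacnb3*-/- call was lost with the GC trend removed (0.27, adjusted p = 0.0579). *Zbtb46* rose with the block in *Cacnb3*-/- BMDCs (0.31 ± 0.09, adjusted p = 0.024), where it was higher at 24h in all 5 cultures, and gave 0.10 ± 0.07 in WT (adjusted p = 0.439). Without p974s843 its adjusted p was 0.121.

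*Irf4* (ENSMUSG00000021356, chr13:30749226-30766927, plus strand) was lower in 24h than in 0p5h in 9 of 10 cultures, with WT p974s846 the exception at 190 and 198 CPM. With the block it fell in *Cacnb3*-/- BMDCs (-0.33 ± 0.10, adjusted p = 0.0355) and gave -0.29 ± 0.09 in WT (adjusted p = 0.0631). Both passed once the GC trend was removed as well (adjusted p = 0.00757 and 0.0457). Without p974s851 the *Cacnb3*-/- value had an adjusted p of 0.0913.

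*Spi1* (ENSMUSG00000002111, chr2:91082390-91115756, plus strand), with a GC content of 58.9%, was lower in 24h in 5 of 5 *Cacnb3*-/- cultures and higher in 4 of 5 WT cultures. The blocked values were -0.40 ± 0.12 (adjusted p = 0.0322) and 0.11 ± 0.08 (adjusted p = 0.399), and *Spi1* did not pass in *Cacnb3*-/- BMDCs once the GC trend was removed. *Kmo* (ENSMUSG00000039783, chr1:175620381-175662116, plus strand) rose with the block in *Cacnb3*-/- BMDCs (0.58 ± 0.20, adjusted p = 0.0481), on 22 to 64 reads per library, and gave 0.05 ± 0.23 in WT. It too did not pass once the GC trend was removed. With 1 culture left out in turn, the blocked *Cacnb3*-/- calls passed in 2 of 5 fits for *Id2*, *Zbtb46*, *Irf4* and *Spi1* and in 1 of 5 for *Kmo*, with adjusted p up to 0.171 (*Id2*, without p974s851), 0.132 (*Spi1*, without p974s843) and 0.186 (*Kmo*, without p974s851). *Batf3* (ENSMUSG00000026630, chr1:191097847-191108945, plus strand), *Irf8* (ENSMUSG00000041515, chr8:120736358-120756694, plus strand) and *Bcl11a* (ENSMUSG00000000861, chr11:24078056-24174123, plus strand), a zinc finger factor needed for plasmacytoid DCs, passed in no comparison of sets with all 5 cultures, with or without the block. With the block, *Batf3* passed from 0p5h to 24h in *Cacnb3*-/- BMDCs without p974s865 (-0.40, adjusted p = 0.0122), and *Irf8* from ctrl to 0p5h without p974s843 (0.28, adjusted p = 0.00992).

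Read against all genes, the counts of members were as follows. In WT without the block, 0 members passed an adjusted p of 0.05 from ctrl to 0p5h (0.29% of genes, 0.176% with 2-fold), 0 from ctrl to 24h (0.0152% of genes under both rules) and 1 of 10 from 0p5h to 24h (1.19% of genes, 0.639% with 2-fold). The counts in *Cacnb3*-/- BMDCs were 0 (0.384% of genes, 0.29% with 2-fold), 0 (0% under both rules) and 1 (0.88% of genes, 0.66% with 2-fold). At an unadjusted p under 0.05, WT had 0, 1 and 2 members in these comparisons, beside 4.54%, 8.39% and 11.2% of genes, whereas *Cacnb3*-/- BMDCs had 1, 1 and 3, beside 3.99%, 10.8% and 17.5%. DESeq2 passed 0, 1 and 1 members and 122, 104 and 385 genes in WT, against 0, 0 and 1 members and 92, 66 and 455 genes in *Cacnb3*-/- BMDCs. Shares of the genes DESeq2 tested are not given, so its counts are no result about the members. With the block, 2 of 10 members passed from ctrl to 0p5h in WT (5.96% of genes), 2 from ctrl to 24h (6.05%), 2 from 0p5h to 24h (11.3%), and in *Cacnb3*-/- BMDCs 1 from ctrl to 0p5h (2.35%) and 7 from 0p5h to 24h (28.6%). With 1 culture left out, 1575 to 5071 genes passed in the last comparison.

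**Figure D2:**
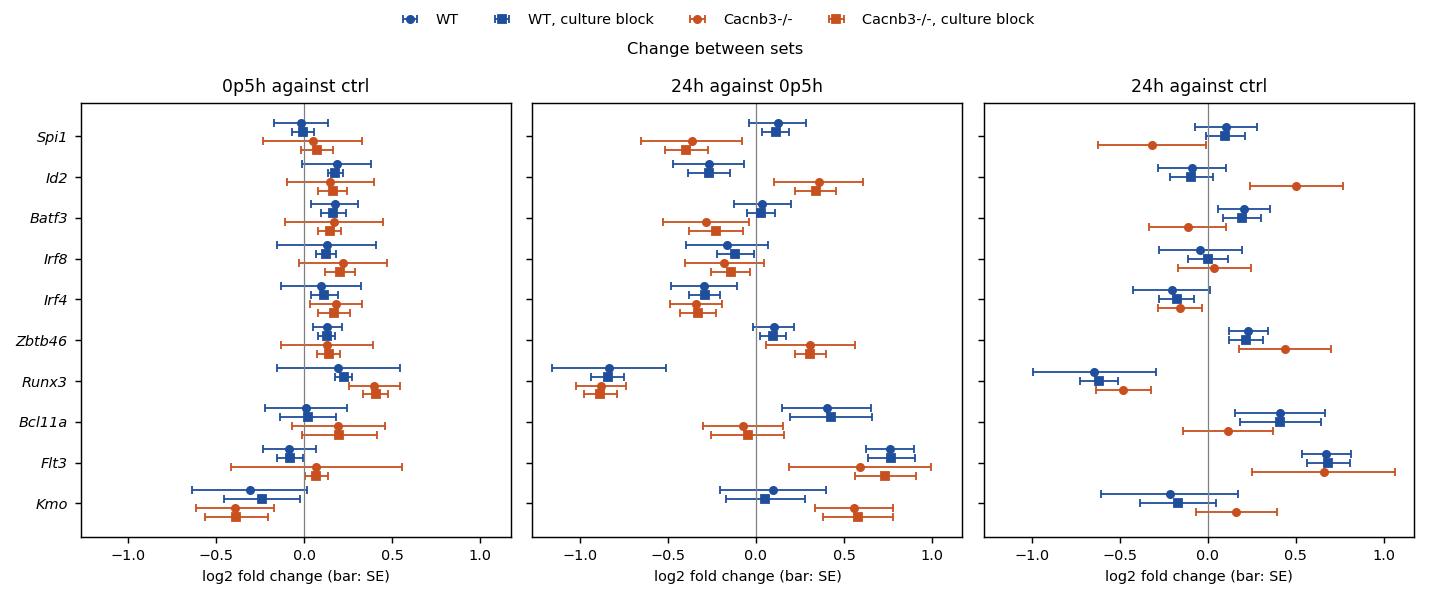
Log2 fold change (x axis) of each gene (y axis) between sets, for WT (blue) and *Cacnb3*-/- BMDCs (orange), from edgeR without the culture as a block (circles) and with it (squares). Bars give the SE, and the blocked fit of *Cacnb3*-/- 24h against ctrl is not drawn. *Runx3* lies left of 0 and *Flt3* right of 0 in both comparisons with 24h, and the block shortens the bars.

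Between genotypes, *Kmo*, which encodes kynurenine 3-monooxygenase and belongs to the gene set shared by conventional DCs, was the member that differed most, with more counts in *Cacnb3*-/- libraries in all 3 sets. In ctrl it stood at 0.883, 2.33, 0.691, 1.32 and 1.01 CPM in WT and at 2.02, 1.66, 2.68, 2.63 and 2.75 CPM in *Cacnb3*-/- libraries. WT p974s850 lay among the *Cacnb3*-/- values, and 0 members had groups without overlap, against 1.93% of genes. In 0p5h it stood at 1.03, 1.27, 0.913, 1.0 and 0.832 CPM against 2.08, 1.5, 2.01, 1.94 and 1.51 CPM, and in 24h at 0.732, 1.56, 0.819, 1.64 and 0.704 CPM against 3.33, 2.76, 1.94, 2.55 and 2.64 CPM. In both of these sets every *Cacnb3*-/- library lay above every WT library, and *Kmo* was the only such member, against 2.05% of genes in 0p5h and 6.51% in 24h.

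The differences of *Kmo* were 0.93 ± 0.33 in ctrl (adjusted p = 0.251), 0.86 ± 0.22 in 0p5h (adjusted p = 0.251), 1.31 ± 0.31 in 24h (adjusted p = 0.0515) and 1.0 ± 0.24 once each culture's 3 libraries were added up (adjusted p = 0.127). None passed in edgeR. In DESeq2 *Kmo* passed in 24h (1.31, adjusted p = 0.00447) and over the summed libraries (0.98, adjusted p = 0.00799). With the GC trend removed the 24h value was 0.98 ± 0.33 (adjusted p = 0.133), *Kmo* having a GC content of 43.6%. The annotated span of *Kmo* shares its first bases with that of *Fh1* (chr1:175600374-175625635, minus strand), a gene named for this overlap after its values were seen. Reads were counted without strand, so reads of the 2 genes in the shared stretch cannot be told apart. *Fh1* stood at 23.9 to 54.7 CPM and its genotype difference was -0.05, -0.15 and -0.26 in ctrl, 0p5h and 24h (adjusted p = 0.837, 0.511 and 0.32).

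*Spi1* was lower in *Cacnb3*-/- BMDCs, most at 24h, where WT libraries stood at 281, 328, 307, 439 and 253 CPM and *Cacnb3*-/- libraries at 129, 194, 130, 131 and 311 CPM. The groups overlapped through p974s865 alone, whose GC trend and mitochondrial share (3.21%) lay within the WT range. The difference was -0.83 ± 0.26 (adjusted p = 0.0535). Without p974s865 it was -1.11 ± 0.19 (adjusted p = 0.00799), and with the GC trend removed -0.40 ± 0.17 (adjusted p = 0.174). In ctrl and 0p5h it was -0.41 ± 0.25 and -0.33 ± 0.21 (adjusted p = 0.4 and 0.429).

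*Irf8* lay below WT in each set, at -0.60 ± 0.26 in ctrl (adjusted p = 0.284), -0.49 ± 0.27 in 0p5h (adjusted p = 0.377) and -0.52 ± 0.19 in 24h (adjusted p = 0.0702). Its WT 24h libraries stood at 1680, 1330, 1860, 1810 and 1150 CPM and the *Cacnb3*-/- ones at 801, 1140, 1200, 1310 and 964 CPM, and WT p974s864 lay among the latter. *Runx3* gave -0.70 ± 0.28, -0.48 ± 0.24 and -0.54 ± 0.25 in ctrl, 0p5h and 24h (adjusted p = 0.272, 0.332 and 0.136). Its 24h value was -0.15 ± 0.26 with the GC trend removed. *Irf4* gave -0.38 ± 0.20, -0.27 ± 0.18 and -0.33 ± 0.16 (adjusted p = 0.352, 0.461 and 0.142). *Id2* differed by 0.65 ± 0.24 in 24h (adjusted p = 0.074) and by 0.05 ± 0.23 and 0.03 ± 0.22 in ctrl and 0p5h. *Zbtb46*, *Batf3*, *Flt3* and *Bcl11a* had differences between -0.18 and 0.34 over the 3 sets, and *Batf3* at 24h changed sign with the GC trend removed, from -0.18 to 0.33.

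In edgeR 0 members and 0% of genes passed between genotypes in ctrl, 0p5h, 24h or the summed libraries, with or without the 2-fold rule. At an unadjusted p under 0.05 the members numbered 3, 1, 4 and 4 of 10, beside 16.6%, 16.4%, 38.4% and 23.3% of all genes tested. DESeq2 passed 0, 0, 4 and 1 members at any fold, and 247, 131, 3377 and 1025 genes. The shares of the genes DESeq2 tested are not given, so these counts are no result about the members. The median difference over the 10 members was -0.02, 0.05, -0.18 and 0.01, and that over all genes 0.03, 0.02, 0.01 and 0.02.

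The cultures p974s864 and p974s865 weighed on the 24h comparison. Without WT p974s864, 4 members passed (*Kmo* 1.19, *Spi1* -0.90, *Runx3* -0.69 and *Irf8* -0.60) beside 18.7% of genes, and without *Cacnb3*-/- p974s865, 3 did (*Kmo* 1.31, *Spi1* -1.11 and *Id2* 0.81) beside 35.3% of genes. With both left out 6 members passed, the above 5 and *Zbtb46* (0.55), beside 39.8% of genes. This pair is shown because leaving out its cultures decided calls, so the counts without it are no independent support. The part of these cultures in the result was not tested. The GC trend and the mitochondrial share moved with genotype in this set.

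**Figure D3:**
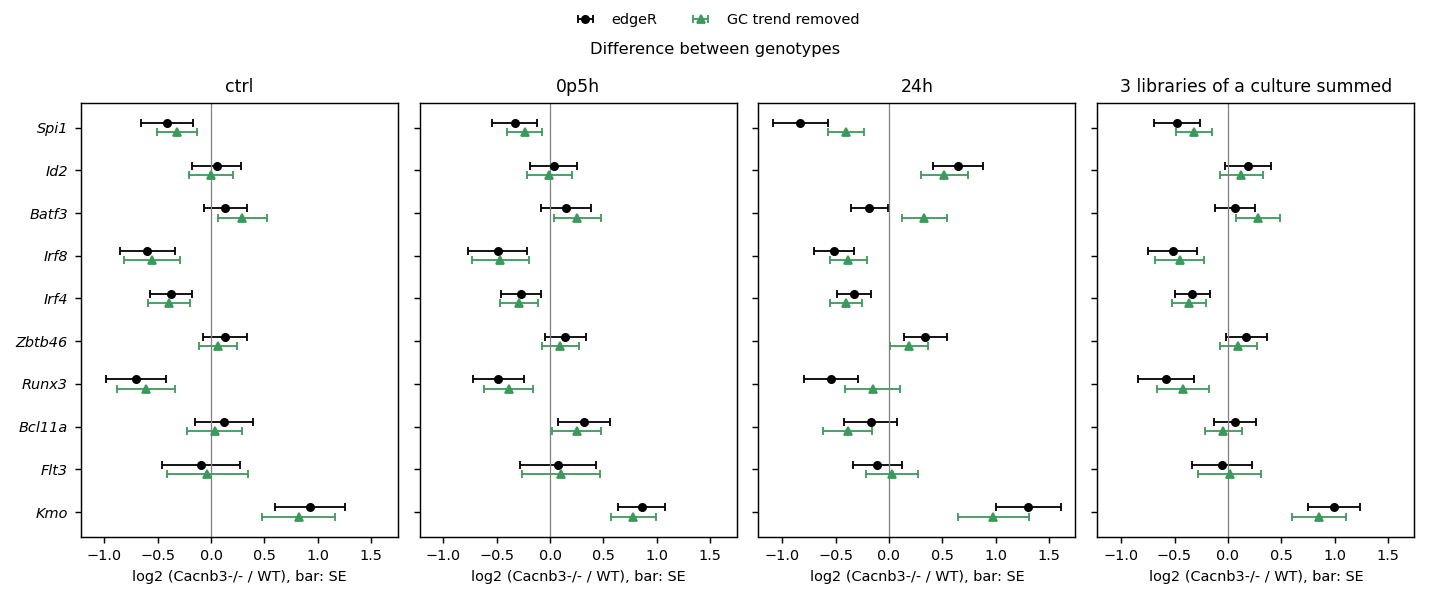
Log2 ratio of *Cacnb3*-/- to WT (x axis) of each gene (y axis) in the sets ctrl, 0p5h and 24h and for each culture's 3 libraries added up, from edgeR (black circles) and with each library's GC trend removed (green triangles). Bars give the SE. *Kmo* lies right of 0 in every panel, and removal of the GC trend moves *Spi1* at 24h from -0.83 to -0.40.

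Whether a member's change between sets differed by genotype was tested as an interaction. In edgeR all the members' interaction terms had an adjusted p of at least 0.68, and 0% of genes passed from ctrl to 0p5h, ctrl to 24h or 0p5h to 24h under either rule. At an unadjusted p under 0.05 there were 0 members in each, beside 0.223%, 4.86% and 5.88% of genes, and DESeq2 without the block passed 0 members and 0 genes. The terms farthest from 0 between 0p5h and 24h were those of *Id2* (0.62 ± 0.33, adjusted p = 0.68) and *Spi1* (-0.50 ± 0.35, adjusted p = 0.69). With the block they were 0.60 ± 0.17 and -0.51 ± 0.16 (adjusted p = 0.108 for both), and with the GC trend removed as well 0.50 ± 0.15 (adjusted p = 0.202) and -0.17 ± 0.09 (adjusted p = 0.37). With the block 0 members passed and 0.00745% of genes did. That was 1 gene, *Btla*, an inhibitory receptor of the core cDC list (2.29 ± 0.26, adjusted p = 0.0027), which fell in WT (-1.20 ± 0.11, adjusted p = 0.000417) and rose in *Cacnb3*-/- BMDCs (1.08 ± 0.25, adjusted p = 0.00993) from 0p5h to 24h. From ctrl to 0p5h 0 members and 0% of genes passed with the block. For *Flt3* and *Runx3* the blocked terms between 0p5h and 24h were -0.04 ± 0.25 and -0.05 ± 0.13.

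The cultures differed in these genes. Between 36.3% (*Bcl11a*) and 89.3% (*Irf8*) of a gene's variance in log2 CPM over the 30 libraries lay between the means of cultures, and the median over 13755 genes was 65.5%. Mean levels per culture, as log2 CPM relative to all cultures, gave WT p974s855 the highest *Irf8* (0.76), *Irf4* (0.68) and *Runx3* (0.78). *Cacnb3*-/- p974s852 had the highest *Zbtb46* (0.64) and *Id2* (0.63) and the lowest *Spi1* (-0.94). *Cacnb3*-/- p974s865 was lowest for *Flt3* (-1.14), *Irf8* (-0.68), *Zbtb46* (-0.48) and *Batf3* (-0.44). *Kmo* was above its mean in all 5 *Cacnb3*-/- cultures and below it in 4 of 5 WT cultures.

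**Figure D4:**
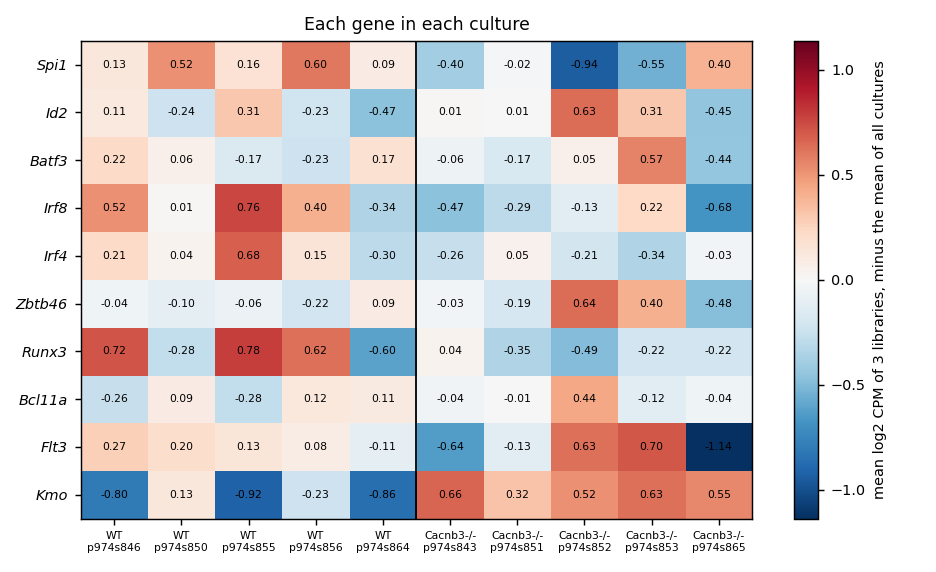
Mean log2 CPM of the 3 libraries of each culture (columns, 5 WT on the left and 5 *Cacnb3*-/- on the right) for each gene (rows), minus the mean over the 10 cultures, in red where higher and blue where lower, with the value in each cell. *Flt3* ranges from -1.14 in p974s865 to 0.70 in p974s853, and *Kmo* is red in all 5 *Cacnb3*-/- columns.

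Members that went together over the 30 libraries were described by Pearson's r of log2 CPM, without a test, since libraries of 1 culture share their cells and all share TMM scaling. *Irf4* and *Runx3* had r = 0.784, *Zbtb46* and *Flt3* 0.713 and *Zbtb46* and *Id2* 0.708. *Spi1* ran opposite to *Zbtb46* (r = -0.796) and to *Id2* (-0.751). *Irf4* and *Irf8* had r = 0.578, and *Irf8* and *Batf3*, both needed for cDC1, 0.365.

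Among all genes with a mean of at least 8 CPM, the most alike to *Runx3* were *Gab2* (r = 0.936), *Uck2* (0.929) and *Pfkp* (0.922). Those for *Flt3* were *Poglut1* (0.916), *Net1* (0.915) and *Rassf2* (0.915), and for *Zbtb46* *Serpinb9* (0.937), *Adgrg6* (0.936) and *Rasa2* (0.926). *Spi1* was most like *Tln1* (0.968), *Crlf2* (0.959) and *Rps6ka1* (0.959), and *Id2* most like *Hat1* (0.947), *Sugt1* (0.943) and *St8sia4* (0.938). For *Irf8* they were *Nudt9* (0.942), *Sik3* (0.938) and *Dnajb2* (0.933), for *Irf4* *Slc1a4* (0.906), *Plekha2* (0.893) and *Gna13* (0.890), and for *Batf3* *Crtc2* (0.856), *Izumo4* (0.817) and *Gpr132* (0.813). *Kmo* and *Bcl11a*, the members with the lowest counts, had lower values, and the cause was not tested. These were *Mmp8* (0.774), *Ly86* (0.743) and *Arhgap6* (0.733) for *Kmo* and *Klrd1* (0.643), *Maco1* (0.620) and *Lysmd2* (0.601) for *Bcl11a*.

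Other transcription factors of the DC lineage formed a list of 28, of which 26 were tested in each set comparison. *Klf4*, needed for monocytes and part of the cDC2, rose from ctrl to 0p5h in WT (1.95 ± 0.30, adjusted p = 0.0236) and fell to 24h in WT (-2.52 ± 0.24, adjusted p = 0.000375) and *Cacnb3*-/- BMDCs (-2.36 ± 0.47, adjusted p = 0.0376). *Nfil3*, upstream of *Id2* in cDC1 development, rose from ctrl to 0p5h in *Cacnb3*-/- BMDCs (1.11 ± 0.17, adjusted p = 0.013) and fell to 24h in both genotypes (-0.96 ± 0.18, adjusted p = 0.0313, and -1.14 ± 0.13, adjusted p = 0.00103). No other factor of the list passed without the block. With it, 6 passed from ctrl to 0p5h in WT (4 higher, 2 lower, beside 5.96% of all genes) and 11 from 0p5h to 24h (5 higher, 6 lower, beside 11.3%), and in *Cacnb3*-/- BMDCs 5 (4 higher, 1 lower, beside 2.35%) and 9 (5 higher, 4 lower, beside 28.6%). *Id3*, a relative of *Id2*, was the factor of the list with the largest rise from 0p5h to 24h in WT (1.56 ± 0.21, adjusted p = 0.00246). The list's median change there was -0.12, against 0.00 over all genes.

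In the Flt3 and GM-CSF receptor axis, 14 of 15 genes were tested and none passed without the block in any comparison. With the block *Socs3*, a feedback inhibitor of cytokine receptors, fell from 0p5h to 24h in WT (-1.58 ± 0.17, adjusted p = 0.00089) and *Cacnb3*-/- BMDCs (-0.92 ± 0.17, adjusted p = 0.00282). *Kit*, the related receptor of progenitors, rose in WT (0.31 ± 0.09, adjusted p = 0.049). Among *Cacnb3*-/- BMDCs *Csf1r*, the macrophage growth factor receptor, fell (-0.60 ± 0.11, adjusted p = 0.00278), as did *Csf2ra* (-0.44 ± 0.13, adjusted p = 0.0295), while *Socs2* rose (0.69 ± 0.11, adjusted p = 0.00192). Of all genes, 11.3% passed with the block in this comparison in WT and 28.6% in *Cacnb3*-/- BMDCs. Values with the GC trend removed are not given for these genes.

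Around *Kmo*, 8 of 12 genes of the kynurenine pathway were tested and none passed without the block. With it, *Ido2* rose from 0p5h to 24h in WT (1.10 ± 0.16, adjusted p = 0.0036) and *Cacnb3*-/- BMDCs (0.96 ± 0.18, adjusted p = 0.00355), and *Ido1*, whose product opens the pathway, in WT (0.81 ± 0.18, adjusted p = 0.0216). *Haao*, the most abundant of them at 70.2 CPM per kb, fell in *Cacnb3*-/- BMDCs (-0.53 ± 0.11, adjusted p = 0.00589), as did *Kyat1* (-0.50 ± 0.16, adjusted p = 0.0363). Here too 11.3% of all genes passed with the block in WT and 28.6% in *Cacnb3*-/- BMDCs, and values with the GC trend removed are not given.

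Marker lists of DC branches were read in the same way. Without the block, from 0p5h to 24h in WT, 0 of 11 cDC1 markers, 0 of 9 cDC2 markers, 0 of 24 core cDC genes and 1 of 14 genes of migratory mature DCs (*Arc*, 0.90 ± 0.18, adjusted p = 0.0335) passed. Among *Cacnb3*-/- BMDCs 1 of 24 core cDC genes did (*Ass1*, -0.77 ± 0.15, adjusted p = 0.0356) and none of the other 3 lists. Of all genes, 1.19% passed in WT and 0.88% in *Cacnb3*-/- BMDCs. With the block, 5 of 9 cDC2 markers fell in WT, where 11.3% of all genes passed, and 0 rose. In *Cacnb3*-/- BMDCs 2 of 10 fell and 0 rose, below the 28.6% of all genes that passed. *Mgl2*, a lectin gene, fell in both, at -1.07 ± 0.14 (adjusted p = 0.00201) and -1.16 ± 0.12 (adjusted p = 0.000142). The median of the cDC2 list in WT was -0.44 with the block, against 0.00 over all genes.

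Markers of other cells stood beside the genotype differences. Monocyte markers summed to 80.3 to 157 CPM in WT and 126 to 516 CPM in *Cacnb3*-/- 24h libraries, with a median difference of 0.95 over 5 of 5 markers tested, and macrophage markers to 2560 to 6530 and 2600 to 10400 CPM, with a median of 0.26 over 13 of 13. Neutrophil and granule genes summed to 155 to 723 and 322 to 665 CPM (median 0.19 over 9 of 12), and progenitor markers to 95.3 to 189 and 119 to 184 CPM (median -0.16 over 4 of 5). Mast cell and basophil markers summed to 7.42 to 16.8 and 6.72 to 32 CPM (median 0.16 over 3 of 7), plasmacytoid DC markers to 473 to 879 and 467 to 964 CPM (median -0.28 over 4 of 9), and B cell markers to 1.19 to 4.70 and 1.06 to 4.12 CPM. None of these markers passed between genotypes, but 0% of all genes did, so this is no result about the markers. The median difference over all genes at 24h was 0.01. The part of these markers in the differences of *Kmo*, *Spi1* and *Irf8* was not tested. Genes of migratory mature DCs had a median difference of -0.69 at 24h over 14 of 14, cDC1 markers of 0.48 over 11 of 14, cDC2 markers of 0.52 over 9 of 11 and core cDC genes of -0.20 over 24 of 25.

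From 0p5h to 24h without the block, 1 of these markers passed, the macrophage and monocyte gene *Cd14* in WT (-2.48 ± 0.51, adjusted p = 0.0396). Of all genes, 1.19% passed there. With the block, 2 of 13 macrophage markers fell and 1 rose in WT, beside 11.3% of all genes. In *Cacnb3*-/- BMDCs 6 fell and 2 rose, beside 28.6% of all genes, in the same comparison in which *Spi1* fell. There *Cd14* (-2.35 ± 0.18, adjusted p = 1.52e-05) and *Csf1r* were among those that fell, and *Maf*, a macrophage transcription factor, rose (1.3 ± 0.16, adjusted p = 0.000283), as did the Fc receptor gene *Fcgr1* (0.73 ± 0.12, adjusted p = 0.00151). In WT 2 of 4 progenitor markers rose, beside 11.3% of all genes passing. They were *Kit* and *Myb* (0.49 ± 0.12, adjusted p = 0.0319), in the comparison in which *Flt3* rose. The part of these markers in the changes of *Spi1* and *Flt3* was not tested.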

How the data were processed

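BMDC RNA was sequenced in 30 libraries, 5 in each of 6 groups of genotype and set. The authors deposited raw read counts per gene, summed over the exons of each gene of Ensembl release 79 for GRCm38 by featureCounts 1.5.1 per the file headers, without options for strand, read pairs or reads with several alignments, so reads of overlapping genes and close copies may be lost. The submitters' processing notes name STAR 2.4 and mm10, and the study's methods GRCm39. Symbols came from the mouse GENCODE release 39, which matched 89.4% of identifiers. *Flt3l* was not analysed here. *Sept3* was read as *Septin3*.

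The 10 members and all gene lists were chosen with earlier results of these data known. Named genes were the members, *Cacnb3*, the 3 genes most correlated with each member, and up to 4 genes per list and comparison with an adjusted p under 0.05. Genotypes were compared within sets and over summed libraries, sets within genotype, and the difference in change as an interaction, 13 comparisons in all.

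Counts were filtered (filterByExpr), scaled (TMM) and tested by quasi-likelihood F-tests in edgeR 4.0.16 (R 4.3.3), with Benjamini-Hochberg adjustment over all genes tested. CPM are TMM-scaled, and CPM per kb use the exon length in the table. Alternatives were DESeq2 1.42.0, limma-voom (3.58.1), DESeq2 size factors, no filter, no fold minimum, GC trend removed (loess, span 0.3), lane as a covariate between genotypes, all libraries in 1 fit, each culture left out, p974s864 and p974s865 both left out, and culture as a replicate block. The blocked fits with a culture left out were added after the data were seen. Of 30 pairs of same-number libraries, 29 deviated together (r over 0.1 across 13755 genes). The median r was 0.609, and it was -0.219 between libraries of unlike number. The pair that did not was *Cacnb3*-/- p974s843 between ctrl and 24h (0.0746). The block was therefore used beside the other comparisons of sets. For *Cacnb3*-/- 24h against ctrl its values carry that limit. The tests without the block were also run on simulated counts with a fixed spread and no culture effect. Those runs check the code only, not the blocked fits or error rates under the spread of these cultures. Promoter sequences came from RefSeq. Depth sets the precision, and the error of low counts covers counting only.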

Additional observations from a re-analysis of the deposited data

How the results depend on the processing

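Of 258 alternative counts of members called, at 2-fold except where no fold minimum was set, 250 stayed at the 0 of the reported fit. In the 24h comparison of genotypes, 1 member was called with DESeq2, 1 without the filter on low counts and 1 with all 30 libraries in a single fit, each time *Kmo*, and 2 with both p974s864 and p974s865 left out (*Kmo* and *Spi1*). Leaving out 1 culture gave 0 to 2 members there. Within a genotype, leaving out that pair is the same as leaving out its 1 culture of that genotype and was not run apart. With no fold minimum, 1 member passed from 0p5h to 24h in WT (*Flt3*) and 1 in *Cacnb3*-/- BMDCs (*Runx3*).

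With the culture as a replicate block, 0 members were called at 2-fold in any comparison of sets. The share of all genes called at 2-fold is not given for these fits or the alternatives above. Those counts are thus no result about the members. In *Cacnb3*-/- 24h against ctrl, the p974s843 libraries did not deviate together (r = 0.0746), whereas those of the other cultures did (r = 0.428 to 0.703). There 3 members passed at any fold with the block (*Flt3* 0.80, *Zbtb46* 0.45 and *Runx3* -0.48, adjusted p = 0.0323, 0.031 and 0.0226), beside 8.54% of genes. *Runx3* was lost once the GC trend was removed. In the interaction from ctrl to 24h 0 members passed with the block, beside 0.118% of genes. With DESeq2 and the block, *Id2* and *Spi1* passed in the interaction from 0p5h to 24h (adjusted p = 0.0306 and 0.0394), beside 868 genes (9.64%). With all 30 libraries in a single fit without the block, neither the WT *Flt3* call nor the *Cacnb3*-/- *Runx3* call from 0p5h to 24h was past the threshold (adjusted p = 0.475 and 0.0823). Neither *Flt3* nor *Runx3* changed sign in any fit of 0p5h to 24h. Mean levels stayed within 1 SD under DESeq2's size factors in 60 of 60 groups. No member library stood out in 60 groups by Dixon's test at 0.71. The counts of *Kmo* and *Bcl11a* (11 to 65 reads) limit what can be seen for them. The cause of these differences was not tested.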
